A study of Bos taurus with 8 samples.

Results

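The genes of 6 receptors of natural killer (NK) cells, NCR1, KLRF1, KLRD1, KLRB1, KLRK1 and NKG2A, were followed in cattle blood cells with and without lipopolysaccharide (LPS), a component of the outer membrane of gram-negative bacteria. The members were the rows that carry these names, and all 6 were found among the 21861 genes listed for every scRNA-seq library: NCR1 (ENSBTAG00000045529), KLRF1 (ENSBTAG00000037534), KLRD1 (ENSBTAG00000046389), KLRB1 (ENSBTAG00000012029), KLRK1 (ENSBTAG00000004917) and NKG2A (ENSBTAG00000052658). Blood of 4 Holstein cows, lactating females 2 years old, had been mixed into a single pool and divided into a no LPS part and parts kept with LPS at 2 µg/ml over 2, 4 or 8 h, after which peripheral blood mononuclear cells (PBMCs) were isolated. Each treatment gave 1 scRNA-seq library and 1 scATAC-seq library, so a treatment is a single tube of the same pool. No animal or replicate can be compared, and how long the no LPS part was kept is not given in the sources used here.

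NK cells are lymphocytes that kill infected or transformed cells without a rearranged antigen receptor, and they are steered by the balance of activating and inhibitory receptors at their surface. NCR1 (NKp46) is an activating receptor that signals through the adaptors FCER1G and CD247, and it is the receptor by which bovine NK cells are usually recognised. KLRK1 (NKG2D) is an activating receptor that pairs with HCST (DAP10) and binds stress-induced MIC and ULBP proteins. NKG2A is an inhibitory receptor that works only as a dimer with KLRD1 (CD94). KLRB1 (NKR-P1, CD161) binds C-type lectin-like proteins of the CLEC2 group, and KLRF1 (NKp80) is an activating lectin-like receptor. T cells, which carry CD3 (CD3D, CD3E, CD3G), can hold several of these receptors as well. By the gene order of the RefSeq table (assembly ARS-UCD2.0, matched by symbol for 6 of 6), the 5 lectin-like genes lay on the same chromosome, where NKG2A was followed by NKG2C, KLRK1 and KLRD1 and where KLRB1 stood next to CLEC2D, and NCR1 lay on another chromosome next to FCAR.

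After the limits on cells, 7821 cells of no LPS, 9865 of 2 h LPS, 7387 of 4 h LPS and 3411 of 8 h LPS remained, with 38503367, 47875879, 40160248 and 16657841 unique molecular identifiers (UMIs). The median UMIs per cell lay between 3997 and 4757, and 8 h LPS had the largest share of cells under 2000 UMIs (26.6%, against 8.83% to 14.3%). The scRNA-seq libraries shared 8 to 24 cell barcodes a pair. All intervals below are 95% intervals for counting error only. UMIs of the same cell are not independent, so the intervals of summed UMIs are narrower than the true error, and no interval covers the difference between tubes.

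Over all kept cells the receptor RNAs were scarce and differed by less than 2-fold between LPS and no LPS. A level here is the sum of a gene's UMIs scaled to the same total of UMIs in every library (CPM), and a ratio is log2 of LPS against no LPS after 1 CPM was added to each level, which shrinks the ratios of genes this low. NCR1 stood at 3.12 CPM in no LPS, and 3.91, 4.81 and 5.34 after 2, 4 and 8 h. It was lowest in no LPS, and the intervals of no LPS (2.58 to 3.73) and 8 h (4.29 to 6.57) did not overlap. NKG2A stood at 7.79 CPM in no LPS, and 5.10, 4.31 and 7.08 after 2, 4 and 8 h. Its intervals at 2 h (4.48 to 5.78) and 4 h (3.69 to 5.0) lay below that of no LPS (6.93 to 8.72), and the interval at 8 h (5.86 to 8.48) overlapped it. KLRD1, the partner of NKG2A, stood at 2.47, 1.55, 1.74 and 2.70 CPM in the same order, so it also was lowest at 2 h and 4 h.

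KLRK1 was detected in more cells than any other member, 4.29% to 4.72% of the cells of each library. Its level was 14.1 CPM in no LPS, and 11.7, 10.3 and 12.8 after 2, 4 and 8 h. KLRB1 stood at 5.04, 3.89, 5.85 and 5.16 CPM, and KLRF1, with 13 to 47 UMIs in a library, at 0.831, 0.982, 0.523 and 0.780 CPM. KLRF1 was detected in 0.271% to 0.405% of cells, the lowest share of the 6. None of the 6 members reached a 2-fold difference from no LPS at any time, where among all genes with at least 20 UMIs over both libraries 0.938%, 1.28% and 0.492% were 2-fold higher after 2, 4 and 8 h and 2.46%, 4.26% and 2.92% lower. At 1.5-fold, NKG2A was lower at 4 h (log2 ratio -0.73) and NCR1 higher at 8 h (0.62), where of all genes 3.18%, 4.72% and 4.86% were 1.5-fold higher at the 3 times and 6.29%, 9.05% and 6.65% lower. The median log2 ratio of the 6 was -0.28, -0.30 and -0.01 at 2 h, 4 h and 8 h, beside -0.03, 0.02 and 0.10 for all genes. In a bulk sum of this kind, fewer cells of a type and less RNA per cell cannot be told apart, which the values by cell class below address in part.

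**Figure D1:**
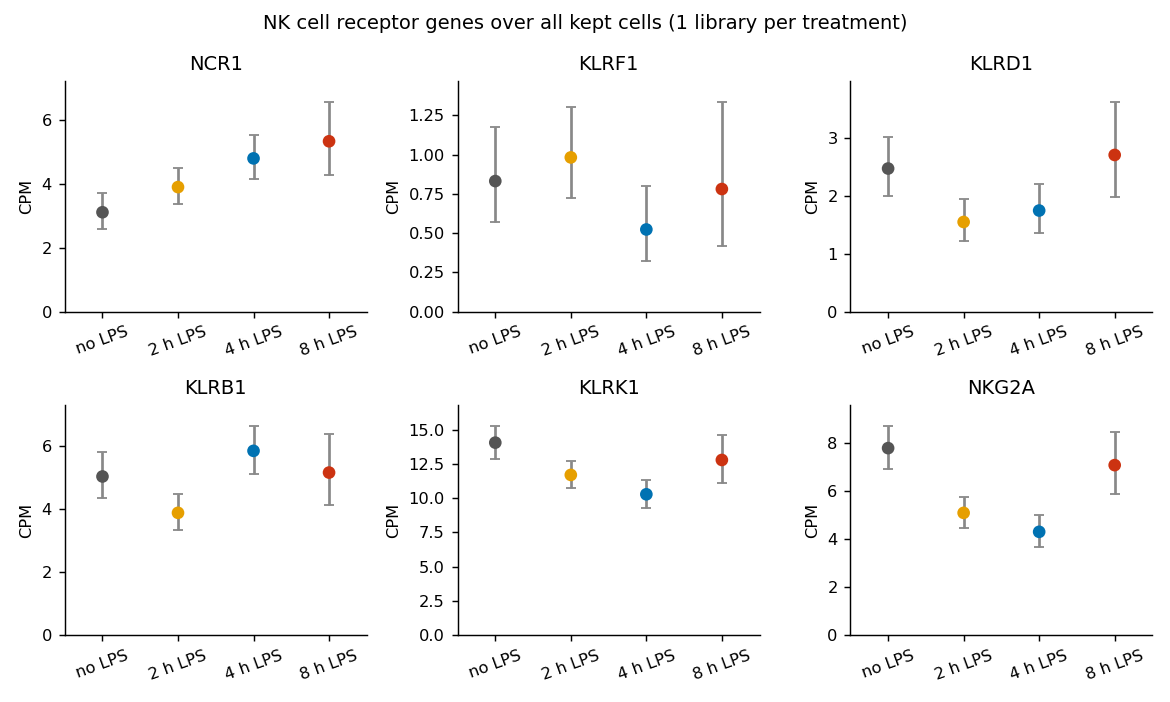
Level of each receptor gene over all kept cells in CPM (vertical axis) in the 4 scRNA-seq libraries (horizontal axis), 1 library a treatment, with exact Poisson 95% intervals as bars. NCR1 went from 3.12 CPM in no LPS to 5.34 CPM at 8 h, and NKG2A from 7.79 CPM to its lowest value of 4.31 CPM at 4 h.

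The presence of CD3E, a chain of the T cell receptor complex, separated KLRK1 from the other 5 members. Over the 4 libraries 15526 kept cells had a CD3E UMI (CD3E-positive) and 12958 had none (CD3E-zero). Of the 1265 cells with a KLRK1 UMI, 933 were CD3E-positive, which is 73.8% (71.2% to 76.2%). The share was 74.5% in no LPS, and 72.6%, 72.7% and 77.3% after 2, 4 and 8 h, so it hardly differed among the libraries.

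For the other 5 members the larger part of the cells was CD3E-zero. CD3E was found in 30.2% (26.0% to 34.8%) of the 443 cells with NCR1 and in 30.7% of the 410 cells with KLRB1. It was found in 32.9% of the 228 cells with KLRD1, in 19.5% of the 435 cells with NKG2A and in 19.8% (12.5% to 28.9%) of the 101 cells with KLRF1. None of these 5 intervals reached that of KLRK1.

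**Figure D2:**
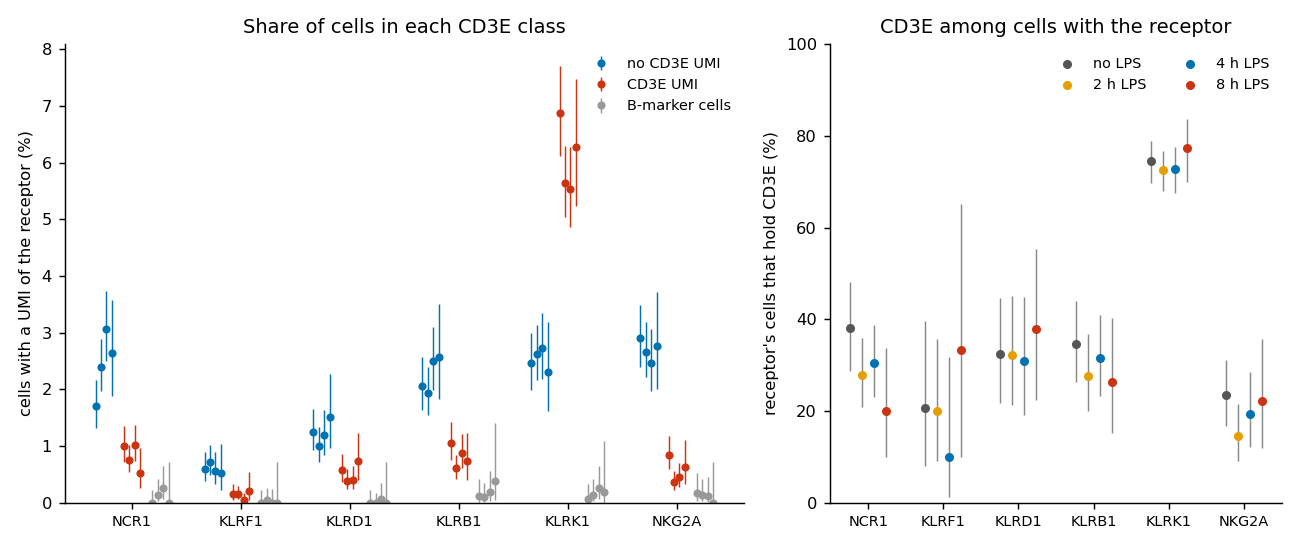
Left, percent of cells (vertical axis) with a UMI of each receptor among CD3E-zero cells, CD3E-positive cells and cells with B cell markers, with 4 points a class for the libraries in order of time from left to right, no LPS first. Right, percent of the cells with each receptor that also hold CD3E, by library; bars are exact binomial 95% intervals, and KLRK1 lies at 72.6% to 77.3% while no point of another receptor exceeds 38.1%.

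Read the other way, NKG2A was found in 2.70% of CD3E-zero cells and 0.547% of CD3E-positive cells, and NCR1 in 2.38% and 0.863%. KLRB1 was found in 2.19% and 0.812%, KLRD1 in 1.18% and 0.483% and KLRF1 in 0.625% and 0.129%. KLRK1 went the opposite way, with 2.56% of CD3E-zero and 6.01% of CD3E-positive cells. Cells with 2 or more of the B cell genes CD79A, CD79B and MS4A1 and no CD3 UMI, which should lack these receptors, gave shares of 0.017% to 0.153% of 5875 cells. The median depth of these B-marker cells was 3955 to 6043 UMIs, beside 4172 to 5106 for CD3E-positive and 2831 to 4591 for CD3E-zero cells. Each share of the CD3E-zero and CD3E-positive cells lay above that of the B-marker cells with intervals apart, except KLRF1 in CD3E-positive cells. Its interval there (20 cells, 0.0787% to 0.199%) met that of the B-marker cells (1 cell, up to 0.0948%).

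The split depended on depth. When each cell was thinned to 1000 UMIs and both were read again from the thinned counts (284 to 508 cells a library were too shallow), CD3E was found in 41.5% of cells with KLRK1, 11.2% with NCR1, 10.9% with KLRB1, 19.2% with KLRD1 and 6.67% with NKG2A. KLRK1 then no longer had CD3E in most of its cells, and it still had the highest share. The ratio of the share of CD3E-zero to that of CD3E-positive cells moved from 0.426 to 0.597 for KLRK1, from 2.76 to 3.35 for NCR1 and from 4.93 to 5.93 for NKG2A, so its side of 1 held for each of these.

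Among CD3E-zero cells 1.70% had NCR1 in no LPS, and 2.40%, 3.07% and 2.64% after 2, 4 and 8 h. Among CD3E-positive cells the shares were 1.00%, 0.754%, 1.03% and 0.528%. Among CD3E-zero cells the 4 h interval (2.50% to 3.73%) lay above that of no LPS (1.31% to 2.16%) and the other intervals overlapped it, and among CD3E-positive cells all intervals overlapped that of no LPS. Whether the classes differ in this was not tested, with 1 library a treatment.

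In summed UMIs NCR1 stood at 3.72 CPM in the CD3E-zero cells of no LPS, and 6.35, 7.80 and 10.8 after 2, 4 and 8 h. All 3 values were above no LPS, with log2 ratios of 0.64 (0.36 to 1.2), 0.90 (0.65 to 1.49) and 1.32 (1.05 to 2.03), and the last was past 2-fold with 1 CPM added. The UMI totals of this class include monocyte-marker cells (2 or more of CD14, CSF1R and CD68, no CD3, CD79A, CD79B or MS4A1 UMI). These numbered 629 in no LPS, and 247, 95 and 65 after 2, 4 and 8 h. Their median depth in no LPS was 10519 UMIs, against 3643 for all CD3E-zero cells. What their fall did to the NCR1 ratios was not tested. A ratio has 1 CPM added to both levels and its interval does not, so at such low levels the interval sits farther out than the ratio. The other 5 members stayed within 2-fold there, so 0, 0 and 1 of the 6 were past it, where 1.93%, 3.32% and 2.26% of genes in CD3E-zero cells were 2-fold higher and 3.93%, 6.72% and 4.1% lower. The median of all genes there was -0.04, 0.06 and 0.18. KLRK1 stood at 21.8 CPM in the CD3E-positive cells of no LPS, and 16.1, 13.3 and 16.2 after 2, 4 and 8 h. It was highest in no LPS, with log2 ratios of -0.41 (-0.64 to -0.23), -0.67 (-0.93 to -0.49) and -0.41 (-0.70 to -0.16). NKG2A stood at 3.44 CPM in the CD3E-positive cells of no LPS, and 1.65, 1.22 and 1.62 after 2, 4 and 8 h. At 4 h, from 27 UMIs, it was just past 2-fold lower after 1 CPM was added to both levels (0.499 times, log2 interval -2.21 to -0.83). It was the only such call among the 5 members with enough UMIs there. At 2 h and 8 h its log2 ratios were -0.75 (-1.66 to -0.48) and -0.76 (-1.98 to -0.28). The levels without the added 1 CPM lay farther apart at all 3 times. Of all genes in CD3E-positive cells 0.71%, 1.07% and 0.419% were 2-fold higher and 0.692%, 1.67% and 0.912% lower. By detection NKG2A kept to 2.47% to 2.90% of CD3E-zero cells in all 4 libraries, and was found in 0.850% of CD3E-positive cells in no LPS and 0.368% to 0.633% under LPS.

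Among CD3E-positive cells KLRK1 was most frequent in those with CD8, the co-receptor of cytotoxic T cells. Of 2462 CD3E-positive cells with CD8A or CD8B and neither CD4 nor a gene of the WC1 family (the scavenger receptors that mark many bovine γδ T cells), 543 had KLRK1, which is 22.1% (20.4% to 23.7%). It was found in 0.912% of 4166 cells with CD4 alone, in 1.18% of 1190 cells with WC1 genes alone and in 4.2% of 7405 cells with none of these. It was found in 8.91% of 303 cells with markers of 2 or more of these classes. Of the 933 CD3E-positive cells with KLRK1, 311 thus held none of the subset markers. The median depth of the classes with 1 marker or none lay between 4095 and 5029 UMIs, and that of the 303 cells with several was 7031. By library, KLRK1 was in 25.5% of the CD8 cells in no LPS, and 20.6%, 19.8% and 23.3% after 2, 4 and 8 h, and all 4 intervals overlapped (22.2% to 29.1% in no LPS, 16.9% to 23.1% at 4 h).

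The other members were far less frequent in CD8 T cells. NCR1, KLRB1 and KLRD1 still leaned to that class among the classes with 1 marker or none. NCR1 was found in 2.07% of the CD8 cells against 0.240% of the CD4 cells, KLRB1 in 2.15% against 0.360% and KLRD1 in 1.5% against 0.12%. NKG2A was found in 0.894% of the CD8 cells and 0.288% of the CD4 cells, and KLRF1 in 0.162% and 0.072%, from 4 and 3 cells. The NKG2A interval of the CD8 cells (0.561% to 1.35%) overlapped that of cells with none of the markers (0.432% to 0.797%). KLRF1 did not lean to CD8 cells, with 0.168% of cells with WC1 genes and 0.149% of cells with none of the markers. Cells with WC1 genes held NCR1 in 0.672% and KLRB1 in 0.588%.

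CD8 T cells with KLRK1 and those without it were compared for genes of killing and of T cell state, which were picked after their values could be seen. The median depth with KLRK1 was 5753 UMIs against 4867 without it, and CPM takes that difference into account while detection of KLRK1 does not. GNLY (granulysin, a pore-forming granule protein) stood at 726 CPM in the 543 cells with KLRK1 and 149 in the 1919 without it, and the level was 3.84, 3.41, 8.63 and 7.35 times as high in no LPS and after 2, 4 and 8 h. It was detected in 25.8% of cells with KLRK1 and 9.07% without it, but at 8 h in 11.0% of 73 and 7.92% of 240 cells. PRF1 (perforin) stood at 218 CPM against 95.2, NKG7, a granule membrane protein, at 197 against 74.5 and CTSW (cathepsin W) at 554 against 209. CCL5, a chemokine of effector T cells, stood at 1831 CPM against 812. At 8 h CCL5 was 1.61 times as high, and it was detected in 21.9% of cells with KLRK1 and 20.8% without it. Not every such gene or library went this way. GZMB (granzyme B) was uneven, with 104 CPM against 28.3 over all libraries but 0.776 times the level at 2 h. CST7 (cystatin F), an inhibitor of granule proteases, was 1.06 times as high over all libraries and 0.679 times at 2 h. At 8 h NKG7 was only 1.22 times as high, GZMM (granzyme M) 0.720 times and EOMES 0.574 times. Of the receptors' own partners, HCST stood at 223 CPM with KLRK1 and 166 without it, though not at 8 h (0.995 times the level). FCER1G was lower in CPM with KLRK1, at 41.8 against 69.2, and was 0.417 times the level at 4 h and 0.343 times at 8 h, there from 10 UMIs. By detection it was nearly equal over all libraries (8.84% with KLRK1, 8.75% without). It was detected more often with KLRK1 in no LPS (13.2% against 10.9%) and at 2 h, and less often at 4 h and 8 h. CD247 (183 and 183 CPM), CD8A (161 and 147) and CD5 (88.4 and 90.8) were nearly equal. CCR7, a chemokine receptor that guides naive and memory T cells to lymph nodes, was lower in cells with KLRK1. Over the 4 libraries together it stood at 315 CPM against 417, but at 8 h it was nearly equal (398 against 416).

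**Figure D3:**
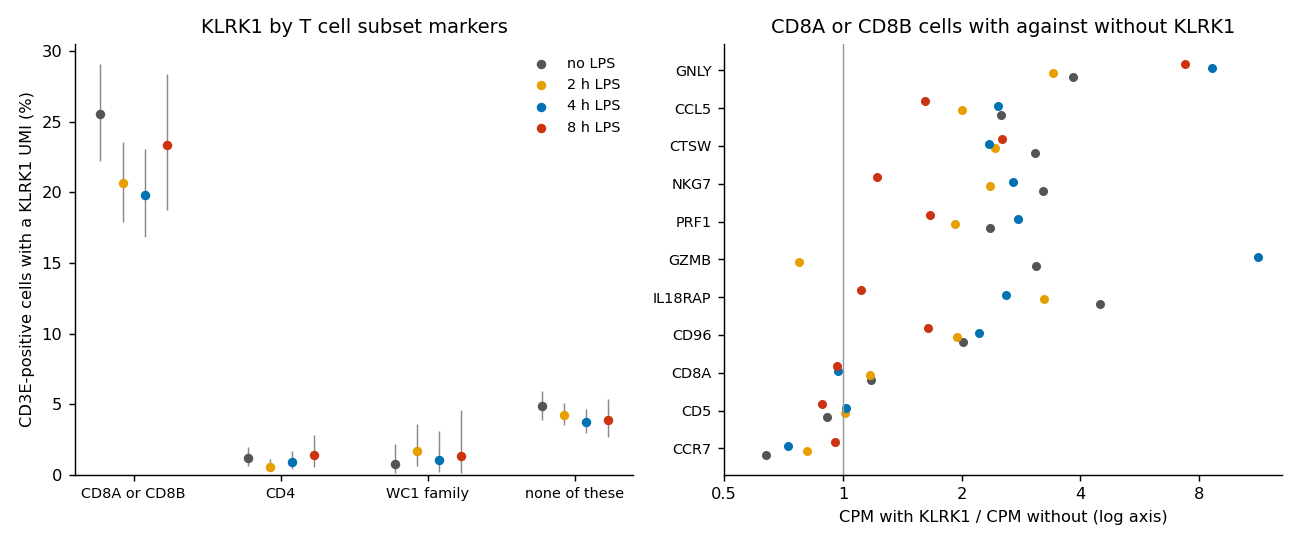
Left, percent of CD3E-positive cells with a KLRK1 UMI by the subset markers they hold and by library, with exact binomial 95% intervals; cells with CD8A or CD8B lie at 19.8% to 25.5%, the CD4, WC1 and unmarked cells at 4.85% or less. Right, ratio of CPM in CD8A or CD8B cells with KLRK1 to those without it (log axis, 1 point a library), where GNLY lies at 3.41 or above in every library and GZMB has no point at 8 h because no cell without KLRK1 held a UMI of it.

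Cells with several receptors at once were counted next. Of the CD3E-zero cells of no LPS, 121 (3.17%) held 2 or more of the 6, beside 147 (3.32%), 124 (3.88%) and 53 (3.5%) after 2, 4 and 8 h, and the 4 intervals overlapped (2.63% to 3.77% in no LPS, 3.24% to 4.61% at 4 h). Of the CD3E-positive cells 62 (1.55%), 43 (0.791%), 45 (1.07%) and 20 (1.06%) did, and the interval of no LPS (1.19% to 1.98%) lay above that of 2 h (0.573% to 1.06%). Both classes reached 5 of the 6 at most. The 445 CD3E-zero cells of this kind are called NK-marker cells here. They were chosen by receptor RNAs alone, so the name stands for a range of cells and not for a defined type.

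In CD3E-zero cells each receptor was found with another member in most of its cells, and 324 cells held exactly 1 receptor beside the 445 with 2 or more. Another member was found in 96.3% (89.6% to 99.2%) of the 81 cells with KLRF1, in 84.3% of the 153 with KLRD1, in 81.7% of the 350 with NKG2A and in 80.6% of the 284 with KLRB1. It was found in 75.4% of the 309 cells with NCR1 and in 69.3% of the 332 with KLRK1. Among CD3E-zero cells without the receptor in question, the share with another member was 3.32% to 5.34%. The inhibitory pair was found together often: 47.1% (38.9% to 55.3%) of cells with KLRD1 held NKG2A, against 2.17% of cells without KLRD1. By library this was 24 of 48 cells in no LPS, 21 of 44 at 2 h, 12 of 38 at 4 h and 15 of 23 at 8 h. KLRD1 in turn was found in 20.6% of cells with NKG2A, against 0.642% of cells without it. NKG2A was also the most frequent companion of NCR1 (42.1%), KLRF1 (54.3%), KLRB1 (44.7%) and KLRK1 (42.5%), so a high share with NKG2A was not particular to KLRD1.

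In CD3E-positive cells KLRK1 mostly stood alone, and the other members did not. Of 933 CD3E-positive cells with KLRK1 only 12.2% (10.2% to 14.5%) held another member, against 1.44% of those without KLRK1. The share was 90.0% for KLRF1 (18 of 20 cells), 69.4% for NKG2A, 68.0% for KLRD1, 67.5% for KLRB1 and 54.5% for NCR1. NKG2A was found in 9.33% of CD3E-positive cells with KLRD1 (7 of 75), against 47.1% in the CD3E-zero cells, and its interval (3.84% to 18.3%) lay below that of the CD3E-zero cells.

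**Figure D4:**
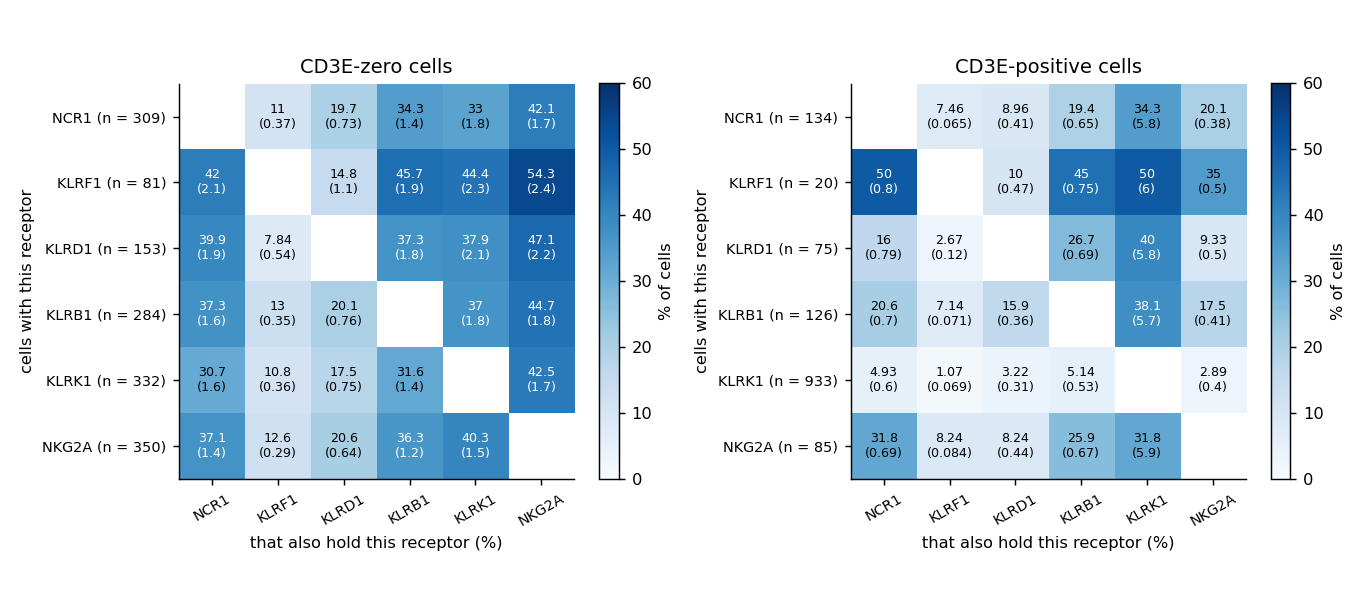
Percent of the cells with the receptor named on the vertical axis that also hold the receptor on the horizontal axis, over the 4 libraries, in CD3E-zero (left) and CD3E-positive cells (right); the value in brackets is the percent among cells without the first receptor and darker blue is a higher percent. In CD3E-zero cells the NKG2A column runs from 42.1% to 54.3%, and in CD3E-positive cells the KLRK1 row does not exceed 5.14%.

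Apart from CD3E, the other genes of cells with 2 or more receptors were not used to choose the cells. The NK-marker cells had FCER1G, the signalling adaptor of NCR1, in 98.9% of cells at 1275 CPM, PRF1 in 78.0% at 442 CPM, NKG7 in 80.0% at 421 CPM and CTSW in 75.1% at 705 CPM. EOMES, a transcription factor of NK and effector T cells, stood at 111 CPM and IL2RB, a chain of the receptors for IL-2 and IL-15, at 229 CPM. In the 12189 CD3E-zero cells with no receptor PRF1 stood at 6.59 CPM, NKG7 at 9.76, EOMES at 1.97 and IL2RB at 17.3. FCER1G was less particular to the NK-marker cells than these genes. Over all kept cells it stood at 785 CPM in no LPS and 188 to 353 under LPS, beside 30.4 to 36.6 for PRF1. Of the T cell genes, CD3D (2.47 CPM), CD3G (0.824) and CD5 (4.12) were near the floor, and 8 of the 445 cells (1.80%) held CD3D or CD3G. CD8 was less scarce, with CD8A or CD8B in 32 of the cells (7.19%). CD8B stood at 20.1 CPM in no LPS, and 21.9, 18.7 and 5.70 after 2, 4 and 8 h, beside 38.6 to 46.1 in CD3E-positive cells. Low T cell genes go with the choice of cells without a CD3E UMI, so they are no separate mark of these cells. Of the same cells 7 held 2 or more B cell genes and so met the B-marker limits, and 2 met those for monocytes.

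The 170 CD3E-positive cells with 2 or more receptors had at least as high a level of the granule genes, with PRF1 at 513 CPM, NKG7 at 421, CTSW at 1388 and GNLY at 1519. Chosen for CD3E, they held more of other T cell genes than the NK-marker cells, with CD3D at 115 CPM and CD5 at 74.0. BLK, a kinase of B and γδ T cells, stood at 122 CPM against 0.824. FCER1G stood at 335 CPM, between the 1275 CPM of NK-marker cells and the 91.1 CPM of CD3E-positive cells with no receptor. Their median depth was 7372 UMIs, beside 5033 for the NK-marker cells and 4376 for CD3E-positive cells without a receptor, and 8 of them (4.71%) held markers of 2 of the lineages T cell, B cell and monocyte, a rule that does not count the receptors. The part of cells captured together in these values was not tested.

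Of the 4 adaptors through which the receptors signal, FCER1G, HCST and CD247 differed by less than 1.5-fold from no LPS in the NK-marker cells and TYROBP was 1.5-fold lower at 4 h and 8 h. FCER1G stood at 1297 CPM in no LPS, and 1305, 1264 and 1203 after 2, 4 and 8 h. In B-marker cells, which should hold little of it, FCER1G was at 270, 111, 68.5 and 54.0 CPM, highest in no LPS. It was detected in 12.6%, 9.07%, 6.09% and 15.5% of them, highest at 8 h. Whether this was free RNA or cells captured together was not tested. HCST, the adaptor of KLRK1, stood at 324, 342, 321 and 419 CPM and CD247 at 121, 124, 112 and 134. TYROBP (DAP12), the adaptor of activating receptors of the NKG2C kind, stood at 92.3, 61.5, 53.3 and 48.4 CPM, with log2 ratios of -0.58 (-1.19 to 0.01), -0.78 (-1.42 to -0.18) and -0.92 (-1.81 to -0.12), and was found in 10.2% to 19.8% of NK-marker cells. TYROBP was at 164 CPM in the B-marker cells of no LPS and 32.5 to 46.8 under LPS. None of the 4 adaptors was 2-fold higher or lower at any time, where of the genes with at least 20 UMIs in these cells 3.99%, 4.08% and 3.48% were higher after 2, 4 and 8 h and 2.42%, 2.97% and 4.39% lower.

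The level of each receptor inside the CD3E-zero cells was then measured in cells chosen by 2 or more of the other 5 receptors, so that no receptor selected its own cells. NKG2A, the member with the most UMIs in no LPS, stood at 248 CPM (204 to 299) in the 86 cells of no LPS, 182 (147 to 222) in 101 cells at 2 h, 121 (93.3 to 153) in 93 cells at 4 h and 246 (192 to 310) in 43 cells at 8 h. It was thus lowest at 4 h, with an interval below that of no LPS, and its 8 h interval overlapped that of no LPS. The log2 ratios were -0.45 (-0.86 to -0.04), -1.04 (-1.51 to -0.59) and -0.01 (-0.46 to 0.43). When cells above 3000 genes were also kept, the 4 h ratio was -0.58, which is no longer past 2-fold, and the 8 h ratio 0.65. NKG2A was found in 58.1% of these cells in no LPS, and 47.5%, 41.9% and 62.8% after 2, 4 and 8 h, whose median depth was 4735, 4790, 5350 and 6419 UMIs. Of the genes with at least 20 UMIs in these cells, 3.27% were 2-fold lower at 4 h.

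KLRD1 went the same way with fewer UMIs. It stood at 67.4 CPM in no LPS, and 39.9, 34.4 and 65.2 after 2, 4 and 8 h, from 36, 27, 23 and 21 UMIs. At 4 h its log2 ratio was -0.95 (-1.79 to -0.18), and at 8 h -0.05 (-0.90 to 0.77). KLRF1 stood at 35, 38.6, 14.1 and 20.4 CPM, and its log2 ratio at 4 h was -1.25 (-2.57 to -0.14) from only 10 and 20 UMIs. Here 3.06% of genes were 2-fold lower at 4 h.

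KLRK1 stood at 151 CPM in no LPS, and 107, 87.7 and 94.6 after 2, 4 and 8 h. It was highest in no LPS, with log2 ratios of -0.50 (-1.01 to 0.01), -0.78 (-1.33 to -0.24) and -0.67 (-1.33 to -0.05). NCR1 stood at 89.2, 83.9, 93.4 and 144 CPM, and only its 8 h value stood apart (log2 ratio 0.69, 0.06 to 1.33). KLRB1 stood at 145, 121, 166 and 147 CPM, with every interval of its ratio including 0. Of the 6 members, 0, 2 and 0 were past 2-fold at 2 h, 4 h and 8 h, and 1, 4 and 3 past 1.5-fold (12.2%, 12.8% and 12.7% of genes were 1.5-fold higher and 9.91%, 11.1% and 12.7% lower in NK-marker cells), with median log2 ratios of -0.36, -0.86 and -0.03. In the NK-marker cells taken as a single set, the genes with as many UMIs as the members had median log2 ratios of 0.05, 0.03 and 0.01, and of the 2885 such genes 3.19% were 2-fold higher and 1.66% lower at 4 h.

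A choice of cells that uses no receptor, 3 or more of the 8 granule genes PRF1, GNLY, NKG7, CST7, CTSW, GZMA, GZMB and GZMM without a CD3 UMI, gave 126, 161, 121 and 42 cells. NKG2A stood there at 236, 154, 109 and 204 CPM, with a log2 ratio of -1.11 (-1.55 to -0.71) at 4 h. NCR1 stood at 64.7, 109, 116 and 177 CPM and was higher than in no LPS at all 3 times, with log2 ratios of 0.74 (0.19 to 1.33), 0.83 (0.27 to 1.43) and 1.44 (0.82 to 2.08), whereas by the other receptors only 8 h stood apart. KLRK1 was lower at 4 h (log2 ratio -0.34, -0.84 to 0.15) and 8 h (-0.50, -1.22 to 0.16) with intervals that now included 0, and so did that of KLRF1 at 4 h (-0.69, -2.04 to 0.52), which was no longer past 2-fold. KLRD1 at 4 h was -0.67 (-1.47 to 0.07), and KLRB1 at 4 h was 0.44 (0.02 to 0.87).

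**Figure D5:**
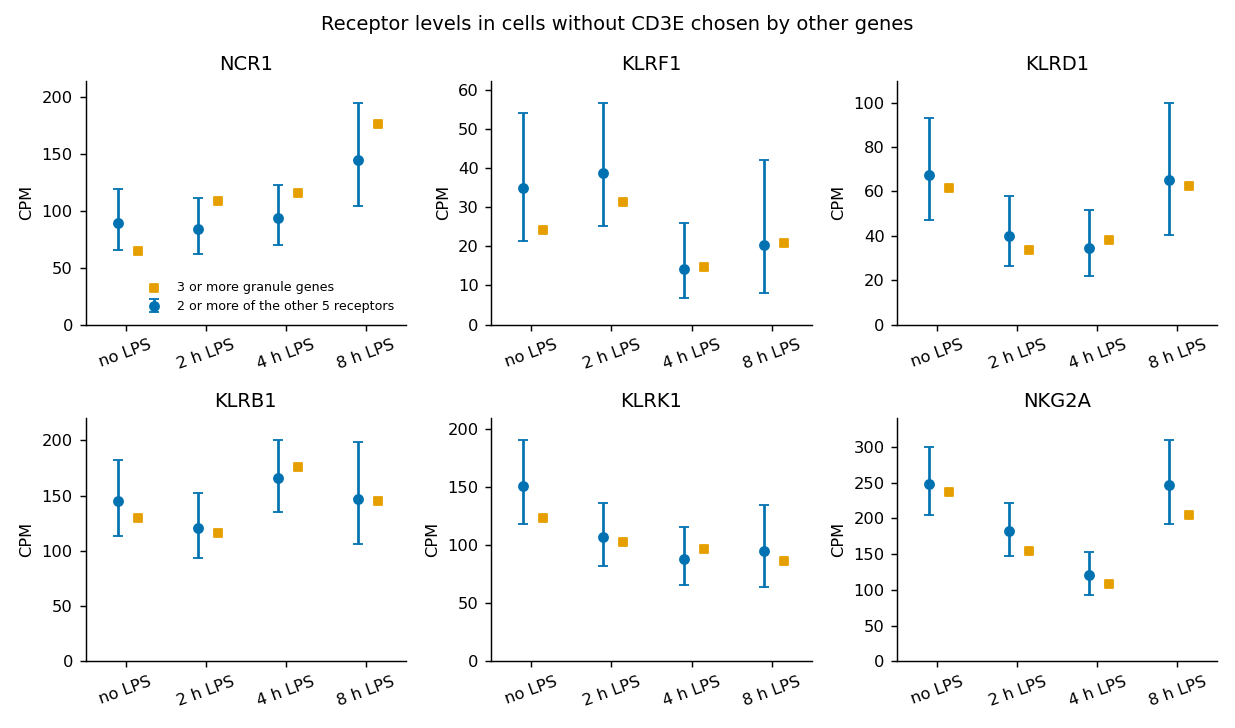
CPM of each receptor (vertical axis) in CD3E-zero cells by library, with circles for cells chosen by 2 or more of the other 5 receptors (bars are exact Poisson 95% intervals) and squares for cells chosen by 3 or more granule genes. NKG2A is lowest at 4 h by both choices (121 and 109 CPM), and NCR1 is highest at 8 h (144 and 177 CPM).

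The closest relatives of NKG2A in the files were 2 further rows, KLRC1 and NKG2C. RefSeq gives KLRC1 as a synonym of NKG2A, whereas the deposited tables hold both names with separate Ensembl identifiers (ENSBTAG00000052658 for NKG2A and ENSBTAG00000054633 for KLRC1). Over the 4 libraries NKG2A had 835 UMIs in 435 cells, KLRC1 57 UMIs in 32 cells and NKG2C 16 UMIs in 14 cells. Of the 32 cells with KLRC1 only 1 also held NKG2A, and the NK-marker cells had 2 UMIs of KLRC1 in all. Of the 14 cells with NKG2C, an activating relative, 13 held NKG2A and all 14 were CD3E-zero. How reads shared by such similar genes were assigned is not given in the sources used here, so the values of these 3 rows are uncertain to that extent.

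Of the 22 related receptors listed in the tables, 9 to 10 had enough UMIs in the NK-marker cells. At 2 h 0 were 2-fold higher and 2 lower, at 4 h 1 higher and 2 lower and at 8 h 0 higher and 1 lower, with median log2 ratios of -0.57, -0.33 and -0.10, where over all genes in these cells 3.99%, 4.08% and 3.48% were higher and 2.42%, 2.97% and 4.39% lower. CD96, which binds the poliovirus receptor family, was found in 70.2% to 83.0% of the NK-marker cells at 356, 354, 293 and 322 CPM. NCR3 (NKp30), an activating receptor, stood at 220, 148, 145 and 123 CPM and was highest in no LPS, with a log2 ratio of -0.84 (-1.38 as the lower bound) at 8 h. FCGR3A (CD16), the receptor for antibody-coated targets, stood at 146, 185, 147 and 165 CPM. CX3CR1, the fractalkine receptor of mature NK cells, stood at 80.5, 49.2, 25.3 and 22.8 CPM and was highest in no LPS. The genes 2-fold lower at 2 h were SLAMF7 and CD244, both SLAM family receptors, at 4 h SLAMF7 and CX3CR1, and at 8 h CX3CR1. KIR2DL5A, of the killer immunoglobulin-like receptor family, was the gene 2-fold higher at 4 h, with 13.4, 13.7, 42.7 and 25.6 CPM from 8, 10, 32 and 9 UMIs. KLRG1, an inhibitory lectin-like receptor, had no UMI in any NK-marker cell, and stood at 1.93 to 2.70 CPM in CD3E-positive cells.

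Among 13 signalling genes, 9 to 10 had enough UMIs, and at each time 1 was past 2-fold, which with so few genes is near the shares over all genes just given. VAV1, a signalling protein of activated lymphocyte receptors, was 2-fold higher at 2 h (15.1 CPM in no LPS, 36.9 at 2 h). PTPN6 (SHP-1), the phosphatase recruited by inhibitory receptors such as NKG2A, stood at 102 CPM in no LPS, and 52.0, 42.7 and 96.9 after 2, 4 and 8 h, and was 2-fold lower at 4 h. It was lowest at 4 h in CD3E-positive cells as well (79.5, 57.4, 47.0 and 65.3 CPM). INPP5D (SHIP-1), an inositol phosphatase, stood at 102, 129, 172 and 211 CPM, and was 2-fold higher at 8 h. SYK stood at 53.3 to 65.5 CPM and its relative ZAP70 at 1.33 to 11.4 CPM, beside 63.6 to 76.4 CPM of ZAP70 in CD3E-positive cells. SH2D1A (SAP), the adaptor of the SLAM family receptors, stood at 404, 316, 285 and 356 CPM.

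Of 7 transcription factors tested at each time none was past 2-fold, and EOMES stood at 117, 109, 112 and 103 CPM. Of the cytokine receptors, 5 to 6 of 7 had enough UMIs, and IL2RA (CD25), the inducible chain of the IL-2 receptor, was 2-fold higher at 2 h and 8 h with 92.3, 213, 163 and 256 CPM. IL2RA was also higher under LPS over all kept cells, at 51.0, 118, 142 and 96.0 CPM, so this was not particular to the NK-marker cells. IL2RB stood at 215, 235, 244 and 211 CPM. Of the granule genes 6 to 7 of 11 had enough UMIs, and only GZMA at 8 h was past 2-fold, from 6 UMIs in 5 cells of no LPS and 15 in 3 cells at 8 h. PRF1 stood at 431, 464, 436 and 430 CPM. GNLY stood at 970, 1792, 1142 and 1083 CPM and was found in 30.6% to 51.0% of NK-marker cells.

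Of the ligands of the receptors 6 were listed by name. All 6 had UMIs over all kept cells in every library, and 2 had enough UMIs in NK-marker cells, both of them class I genes, and neither was past 2-fold. BOLA-NC1, a non-classical class I gene, stood at 285, 324, 321 and 328 CPM in the NK-marker cells and at 201, 207, 228 and 232 CPM over all kept cells. MIC1, a ligand gene of KLRK1, stood at 1.51, 1.02, 1.12 and 1.62 CPM over all kept cells.

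Of the 10 other genes highest in NK-marker cells against all other kept cells, 4 had a name and 6 only an identifier. All had at least 15.8 times the level in every library, and this is a description, since the cells were chosen by their RNA. TAL1, a transcription factor better known from blood stem cells, stood at 119, 72.5, 92.0 and 91.2 CPM. SPRY2, an inhibitor of receptor tyrosine kinase signalling, stood at 211, 124, 148 and 305 CPM, and IDO1, which breaks down tryptophan, at 2550, 2456, 2578 and 2177 CPM. XCL1 (lymphotactin), a chemokine of NK cells, stood at 62.1, 118, 53.3 and 305 CPM and was highest at 8 h. The unnamed gene ENSBTAG00000009943 stood at 706, 889, 663 and 2305 CPM, also highest at 8 h.

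Summed markers of other lineages stood at 200 CPM or less in the NK-marker cells, and some sums were lower under LPS. The 9 T cell markers summed to 50.3, 42.4, 34.7 and 25.6 CPM, against 1157 to 1286 CPM in CD3E-positive cells. CD3E, absent from the NK-marker cells by choice, made up 672 to 759 CPM of the latter. The 4 plasma cell markers summed to 200 CPM in no LPS and 28.0 to 45.6 under LPS. In CD3E-positive cells they summed to 141 CPM in no LPS, which is less, and to 29.7 to 97.7 under LPS. The no LPS sum of the NK-marker cells came mostly from 78 JCHAIN UMIs in 9 cells and 33 MZB1 UMIs in 3 cells. By detection JCHAIN did not fall, with 7.44% of NK-marker cells in no LPS and 7.48%, 8.06% and 7.55% after 2, 4 and 8 h. The 7 monocyte markers summed to 151 CPM in no LPS and 45.6 to 98.6 under LPS. In CD3E-positive cells they summed to 581 CPM in no LPS and 102 to 307 under LPS, and at 4 h the classes were nearly equal (98.6 and 102). In B-marker cells the monocyte markers summed to 1376 CPM in no LPS and 196 to 274 under LPS. Of these S100A12 stood at 978 CPM in no LPS, from 15.3% of the B-marker cells, and at 134 CPM from 23.3% at 8 h. Whether this was free RNA or cells captured together was not tested. The part of such RNA in the receptor values was not tested either. The 1036 monocyte-marker cells held the 6 receptors in 0% to 0.579%. There 0 of 1036 cells with a KLRF1 UMI allows a share of cells with a UMI of up to 0.355% by the exact interval.

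Few receptor rows were listed in the scATAC-seq tables, which hold counts of accessible DNA assigned to genes. Matched by Ensembl identifier, KLRB1 was listed at 2 h and 4 h, NCR1 at 2 h, and none of the 6 in no LPS or at 8 h. The no LPS library held 975012 counts over 3121 barcodes, against 30250143 over 4172 at 2 h, 26837579 over 3231 at 4 h and 11957904 over 3163 at 8 h, and it shared 228 barcodes with the 2 h library (7.31% of its own). KLRB1 had 187 counts in 97 barcodes at 2 h (2.33%, 6.18 CPM, 5.33 to 7.13) and 193 in 110 barcodes at 4 h (3.40%, 7.19 CPM, 6.21 to 8.28), so its intervals at 2 h and 4 h overlapped. NCR1 had 48 counts in 31 barcodes at 2 h (0.743%, 1.59 CPM). CD3E, CD3D and CD3G were listed in none of the 4 tables, so the split by CD3E was not analysed here.

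Barcodes with an NCR1 count carried more counts on genes of NK cells. They were deep, with a median of 15685 counts against 5132 in the other barcodes, and values were compared as CPM. FCER1G was 4.17 times, NKG7 3.66 times, PRF1 3.22 times and IL2RB 2.19 times as high as in the other barcodes, whereas CD5 (0.789 times) and MS4A1 (0.989 times) were not higher. Barcodes with KLRB1 showed less of this: NKG7 was 1.76 times and CD5 1.36 times as high at 2 h, and 0.970 and 0.895 times at 4 h. FCER1G was 0.379 times as high at 2 h and 0.959 times at 4 h.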

How the data were processed

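The scRNA-seq (10x Genomics 3' chemistry) and scATAC-seq tables hold counts per gene and cell barcode, which the authors deposited as made with Cell Ranger on ARS-UCD1.2 (bosTau9): whole UMIs for scRNA-seq, and whole counts assigned to genes for scATAC-seq, by a rule not given in the sources used here. Each treatment had 1 library of pooled blood, so no test was made and no p-value is given; intervals are exact 95% (Poisson for UMIs, Clopper-Pearson for shares).

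A barcode was kept as a cell if it had between 200 and 3000 detected genes, 200 UMIs or more, and less than 20% of its UMIs on mitochondrial genes, which left 28484 of 30756 (2091 lay above 3000 genes). No clustering and no doublet caller was used; cells with markers of 2 lineages (a CD3 gene with 2 or more of CD79A, CD79B and MS4A1, or either with 2 or more of CD14, CSF1R and CD68) were left out as an alternative. Levels are CPM, ratios used a pseudocount of 1 CPM, and genes with at least 20 UMIs over the libraries compared entered the counts past 2-fold. Thinning drew 1000 UMIs a cell.

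The genes named are the 6 receptors, members of the gene lists, and the 10 genes with the highest lowest-library ratio in NK-marker cells to other cells. Genes compared between CD8 cells with and without KLRK1 were picked after their values could be seen. The members, lists and choices of cells were set with earlier results of these data known. Alternatives covered the limits on cells, depth, scaling (edgeR 4.0.16 TMM and DESeq2 1.42.0 size factors, for scaling only), pseudocount and choice of cells. The calculations were tested on simulated data (Python 3.11.15, numpy 2.4.6, scipy 1.17.1, pandas 2.3.3, R 4.3.3). RefSeq symbols (ARS-UCD2.0, another build) served for names and gene order only.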

Additional observations from a re-analysis of the deposited data

How the results depend on the processing

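No paired analysis was possible because each treatment had 1 library. Of the values that answer a comparison, 46 moved by less than their error or stayed within 1.5 times under the alternatives and 23 did not. Over all cells 2 of 18 member comparisons passed 1.5-fold and 0 passed 2-fold. Thinned to 1000 UMIs a cell, CD3E was found in 11.2% of cells with NCR1, 0% with KLRF1 (11 cells), 19.2% with KLRD1, 10.9% with KLRB1, 41.5% with KLRK1, which is no longer most of its cells, and 6.67% with NKG2A; with no upper limit on genes it was 38.2% for NCR1, 36.7% for KLRB1, 76.4% for KLRK1 and 26.8% for NKG2A. The share of CD3E-zero cells with 2 or more receptors was 0.381% when thinned, 0.849% when detection needed 2 UMIs and 4.31% in cells with at least 2000 UMIs, and that of CD3E-positive cells 0.075% and 0.193% for thinning and 2 UMIs. In cells chosen by 2 or more of the other 5 receptors 2 members were past 2-fold at 4 h and 0 at 8 h. At 4 h the count was 1 in cells chosen by granule genes and 0 with no upper limit on genes, and at 8 h it was 1 in cells with 3 or more of the other 5 receptors and 1 by granule genes. With each scATAC-seq count taken as 1, KLRB1 stood at 9.79 CPM at 2 h and 13.9 CPM at 4 h and NCR1 at 3.13 CPM. The log2 ratio of a member had the other sign in 0 to 3 of 18 comparisons over all cells (1 each for TMM and DESeq2 size factors) and in 0 to 4 of 18 in cells chosen by the other receptors or by granule genes. Lower depth removes receptors and CD3E together, and the cause of the other shifts was not tested.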
